A study of Mus musculus with 2 samples.

Results

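CpG-poor open promoters are open chromatin regions of mouse blood monocytes that lie at the start of a single protein-coding gene whose promoter holds few CpG dinucleotides. They were found by merging the overlapping peaks of the conservative peak set of the series, a list filtered by the reproducibility of peak ranks between the replicates (IDR), on chromosomes 1 to 19. A merged region was kept where it lay within 1 kb of protein-coding transcription start sites (TSSs) of exactly 1 gene and where the CpG ratio around the TSS nearest to its summit was under 0.4. The ratio divides the CpGs observed within 500 bp each side of the TSS by the number that the C and G content of the same sequence would give. This left 1272 regions of 1076 genes, 4.56% of all 27898 merged regions. Of these genes, 910 had 1 such region, 139 had 2, 24 had 3 and 3 had 4.

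ATAC-seq, in which the Tn5 transposase inserts sequencing adapters into accessible DNA, was carried out on monocytes taken from peripheral blood of adult C57BL/6J mice aged 5 to 6 weeks. There was 1 untreated group with 2 biological replicates of 50000 cells each, and the sex of the animals was not collected. Both replicates carry the same donor identifier and the labels do not say whether separate animals were used. SDs therefore measure only how far these samples lie apart, which may be technical. The p-values reflect only whether a difference has the same direction in both replicates. The values are peaks with a fold enrichment over background and carry no read counts. Library depth is therefore unknown, and no counting interval is given.

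Mammalian promoters fall into those inside CpG islands, which are mostly unmethylated and open in many cell types, and those with few CpGs, whose DNA is usually methylated unless a factor binds there. Genes with CpG-poor promoters include many that only 1 tissue or lineage uses, such as receptors of blood cells, liver enzymes or keratins. In monocytes the ETS factor PU.1, encoded by Spi1, binds a GAGGAAGT-like sequence together with C/EBP, RUNX and AP-1 factors, while the factor NF-Y binds CCAAT boxes close to start sites in many tissues.

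The sequences below are the 120 bases upstream of the TSS of members that hold 1 of 2 strings counted further on. The first 4 sequences, of strong members, hold a long CCAAT box, and the last 3, of immune genes, hold the PU.1 core. They were read from GRCm38 (mm10), are written 5′ to 3′ on the gene's strand, end at the base before the TSS, and lie outside all annotated transcripts. Capitals mark CCAATCAG in the first 4 and GAGGAAGT in the last 3, in either orientation. The stretches were chosen because they hold these strings, so the strings themselves are no result.
Golph3l, chr3:95588814-95588933, plus strand: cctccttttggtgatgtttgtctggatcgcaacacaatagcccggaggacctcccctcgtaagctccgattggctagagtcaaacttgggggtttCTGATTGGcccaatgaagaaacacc
Zfp932, chr5:109996401-109996520, plus strand: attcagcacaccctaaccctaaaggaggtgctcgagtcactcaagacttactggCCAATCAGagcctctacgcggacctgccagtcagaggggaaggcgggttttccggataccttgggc
Fggy, chr4:95557387-95557506, plus strand: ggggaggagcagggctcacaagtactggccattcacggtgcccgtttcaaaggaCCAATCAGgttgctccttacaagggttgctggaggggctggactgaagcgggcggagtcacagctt
Zfp958, chr8:4613047-4613166, plus strand: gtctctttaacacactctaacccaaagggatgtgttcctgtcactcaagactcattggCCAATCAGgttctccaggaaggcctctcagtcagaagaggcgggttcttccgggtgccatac
Nlrp1a, chr11:71144705-71144824, minus strand: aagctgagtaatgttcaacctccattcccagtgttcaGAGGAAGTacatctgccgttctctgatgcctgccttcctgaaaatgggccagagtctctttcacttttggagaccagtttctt
Nlrp1b, chr11:71230734-71230853, minus strand: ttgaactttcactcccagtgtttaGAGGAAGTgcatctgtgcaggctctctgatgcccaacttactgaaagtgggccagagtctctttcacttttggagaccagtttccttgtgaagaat
Ccr7, chr11:99155078-99155197, minus strand: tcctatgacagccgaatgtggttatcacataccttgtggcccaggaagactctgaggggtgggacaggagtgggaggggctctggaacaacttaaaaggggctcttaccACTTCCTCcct
Counted from the TSS, CCAATCAG lies at -66 to -59 in Zfp932 and Fggy, at -62 to -55 in Zfp958 and at -25 to -18 in Golph3l. The stretches of Zfp932 and Zfp958 share 62 of 88 bases (70.5%) when set on this string without gaps, whereas Zfp932 and Fggy share 24 (27.3%). Those of Nlrp1a and Nlrp1b also share long runs of bases, so they are not 2 independent examples, and their identity was not counted. The PU.1 core lies at -83 to -76 in Nlrp1a, at -96 to -89 in Nlrp1b and at -11 to -4 in Ccr7. In Nlrp1a and Ccr7 it lies over 100 bp from the summit, at -193 and -169 bp from the TSS, so these are not among the members counted by summit windows, and the region of Ccr7 was in neither replicate's thresholded set. The 120 bases of Nlrp1b hold 0 CpGs and those of Nlrp1a and Ccr7 hold 1 each, against 2 to 5 in the first 4 genes.

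The label of the cells was compared with the promoters of marker genes. Of 9 monocyte markers, all CpG-poor, 8 had an open region within 1 kb (Csf1r, Cd68, Ly6c2, Lyz2, Itgam, Cx3cr1, Fcgr1 and Cd14), with fold enrichments from 3.82 to 7.17 in the set of both replicates, and Mpeg1 had none. Cd68, Lyz2, Itgam and Cx3cr1 were also open in each replicate's own IDR-thresholded peak set. Ly6c2 and Fcgr1 were open only in that of replicate 1, and Csf1r and Cd14 in neither. Of the defining markers of other blood cells, Cd79b was open among 5 of B cells at 3.89-fold and Cd3d among 5 of T cells at 12.1-fold. Cd3d was open in both replicates' own thresholded sets and Cd79b in neither. None of 4 NK cell, 7 neutrophil, 4 platelet and 2 erythroid markers had an open promoter in the set of both replicates. However, Ncr1, the activating NK receptor NKp46, had a peak of 7.15-fold in replicate 1 and 4.23-fold in replicate 2. It was chosen after these values had been seen. In bulk samples a smaller number of cells with an open site and a weaker opening in each cell cannot be told apart.

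The first comparison asks how often a CpG-poor start site was open. Of the TSSs with a ratio under 0.1, 132 of 3171 (4.16%) had a region within 1 kb, and the share rose with the ratio to 7.79%, 12.0% and 21.1% in the next 3 classes. It reached 79.2% between 0.8 and 0.9. Counted by gene, 723 of the 7076 genes whose starts were all CpG-poor (10.2%) had an open promoter, against 47.7% of all 20722 protein-coding genes. Olfactory and vomeronasal receptor genes made up 1117 and 328 of the CpG-poor genes, of which 4 and 1 were open, and 12.8% of the remaining 5631 genes were open.

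**Figure D1:**
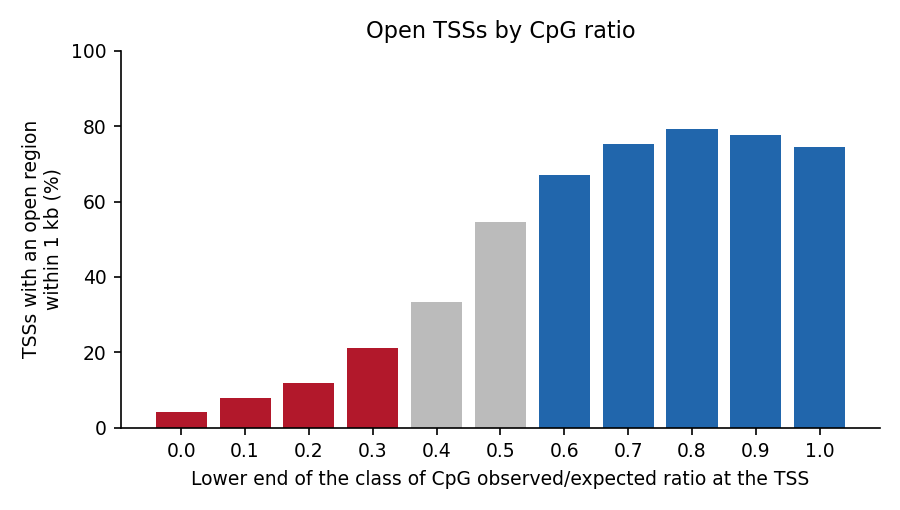
Percent of protein-coding TSSs with an open region within 1 kb (y axis) in classes of the CpG ratio 0.1 wide (x axis, lower end of each class), with the classes under 0.4 in red, 0.4 to under 0.6 in grey and 0.6 or more in blue. The red bars stand between 4.16% and 21.1%, and the highest blue bar at 79.2%.

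Open CpG-poor promoters had weaker peaks than open CpG-rich ones and about the strength of regions far from genes. Their fold enrichment in the set of both replicates had a median of 5.96 (quartiles 4.74 and 7.45, highest 19.4), against 7.92 for the 6497 single-gene regions with a ratio of 0.6 or more and 6.05 for the 17592 regions over 1 kb from any TSS. In the peaks that the authors called on each replicate alone, the median of the members was 5.75 in replicate 1 and 5.54 in replicate 2, and that of CpG-rich promoters was 7.50 and 7.49. The difference, CpG-poor minus CpG-rich, was -1.74 in replicate 1 and -1.96 in replicate 2, a mean of -1.85 ± 0.151 (SD, n = 2), lower in 2 of 2 replicates. An exact two-sided sign-flip permutation test gave p = 0.5, the smallest value that 2 replicates allow, so it cannot pass a threshold of 0.05. Against regions far from genes the difference was -0.0737 ± 0.0187 (SD, n = 2, exact permutation p = 0.5).

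The members were found in the stricter list of each replicate less often than CpG-rich promoters, about as often as all regions, and more often than regions far from genes. Of the 1272 regions, 1175 overlapped a peak called on each replicate alone, 35 overlapped one in replicate 1 only, 49 in replicate 2 only and 13 in neither. Each replicate's own IDR-thresholded set held 765 members (60.1%), and 617 (48.5%) were in both, against 50.3% of all regions, 74.2% of CpG-rich promoters and 38.0% of regions far from genes. The gap to CpG-rich promoters differed with the strength of the peak. Among single-gene promoters with a fold of at most 5.54, 101 of 532 members were in both sets, against 19.4% of CpG-rich promoters. Between 5.54 and 7.45 the shares were 53.7% and 68.8%, from there to 9.87 they were 87.2% and 95.4%, and above that 97.3% and 99.7%. At the 1175 members found in both replicates, the median difference in log2 fold, replicate 2 minus replicate 1, was -0.04 with an SD of 0.24. Replicate 1 was higher at 684 of them and replicate 2 at 490, and 50 (4.26%) lay over 0.5 log2 units apart. Over all regions found in both replicates this share was 4.10% and the SD 0.24, so the members were close to all regions. Across the members found in both, which share libraries and are not independent, the log2 folds had a Pearson correlation of 0.868, against 0.879 over all regions.

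**Figure D2:**
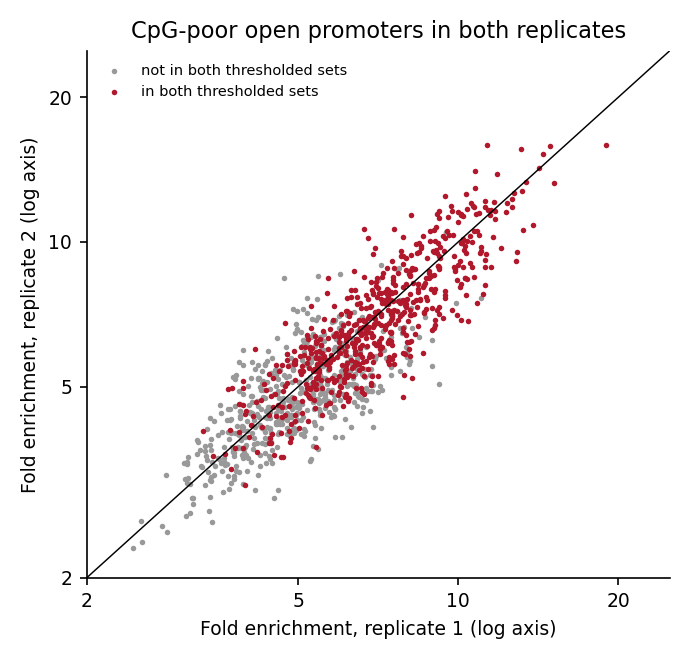
Fold enrichment of each CpG-poor open promoter in replicate 1 (x axis) and replicate 2 (y axis), both log axes, for the 1175 members found in both, with those in both replicates' own thresholded sets in red, others in grey, and the line of equality in black. The points follow the line, and most grey points lie at the low end.

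The largest differences between the replicates were at Clec12a, Zfp72, Gstm7, A530064D06Rik and Lair1. A region with its summit at -258 bp from the TSS of Clec12a, an inhibitory lectin of myeloid cells, had 9.20-fold in replicate 1 and 5.06-fold in replicate 2. In replicate 1 its value comes from a peak that also covers a neighbouring region at 114 bp past the TSS, so the 2 regions are not separate there. At the zinc finger gene Zfp72 the order was the other way, with 4.71 in replicate 1 and 8.41 in replicate 2. Lair1, a collagen receptor that inhibits leukocytes, had 8.92 and 5.51.

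The 20 strongest members in both replicates' thresholded sets included 6 Zfp genes and several genes of blood cells. Golph3l, a Golgi protein related to the phosphoinositide-binding GOLPH3, had the highest values, 18.97 in replicate 1 and 15.9 in replicate 2 (17.4 ± 2.15, SD, n = 2), in a region at chr3:95588544-95589193. The next genes were 2010315B03Rik with 14.9 and 15.8, Zfp738 with 14.4 and 15.2, Zfp950 with 13.1 and 15.6, and Zfp932 with 14.2 and 14.3. Zfp738, Zfp950 and Zfp932 encode proteins named for their zinc fingers, and Zfp958, Zfp748 and Zfp983 were also among the 20 strongest. Trim21, the cytosolic antibody receptor and ubiquitin ligase, had 15.1 and 13.3. Fggy, a carbohydrate kinase, had the widest spread of the 20, with 11.3 and 15.9. In replicate 2 Fggy and Golph3l both had 15.9, so the order at the top differed between the replicates.

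The other strong members encode proteins of several kinds. Nckap1l, the WAVE complex subunit of blood cells, had 13.2 in replicate 1 and 12.8 in replicate 2 at chr15:103453489-103454009. Cd300lf, an inhibitory receptor of myeloid cells, had 10.7 and 14.1 at chr11:115133823-115134202. Nlrp1a, an inflammasome sensor, had 12.6 and 11.9. The adaptor gene Grb2 had 12.3 and 11.5, the chromatin remodelling subunit Baz1a 13.2 and 10.6, Samsn1, an adaptor of blood cells, 10.7 and 13.0, and Mctp1, a membrane protein with C2 domains, 11.8 and 13.8. Grb2, Baz1a and Mctp1 each have another start that is CpG-rich. The list of 20 is completed by 5430403G16Rik, B230307C23Rik and Gm35315, with means of 13.4, 12.5 and 12.3.

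Open CpG-poor promoters were narrower and less closely tied to the annotated start than CpG-rich ones, and about as wide as all regions. Their median width was 451 bp, against 660 bp for CpG-rich promoters, 379 bp far from genes and 448 bp over all regions. A single summit was held by 913 (71.8%), against 47.2% of CpG-rich promoters, 81.8% of regions far from genes and 70.1% of all regions. The region covered the TSS at 801 members (63.0%) and at 85.1% of CpG-rich promoters. The summit, the point of the smallest p, lay upstream of the TSS at 813 members (63.9%), within 200 bp of it at 750 (59.0%, against 77.4%) and over 500 bp away at 360 (28.3%, against 11.0%). Members with a summit within 200 bp had a median fold of 6.33 and those over 500 bp away 5.31. Of the latter, 239 summits lay in introns, and over all members 574 (45.1%) lay in introns, 342 (26.9%) outside genes, 257 (20.2%) in UTRs, 44 in coding exons and 55 in non-coding exons.

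**Figure D3:**
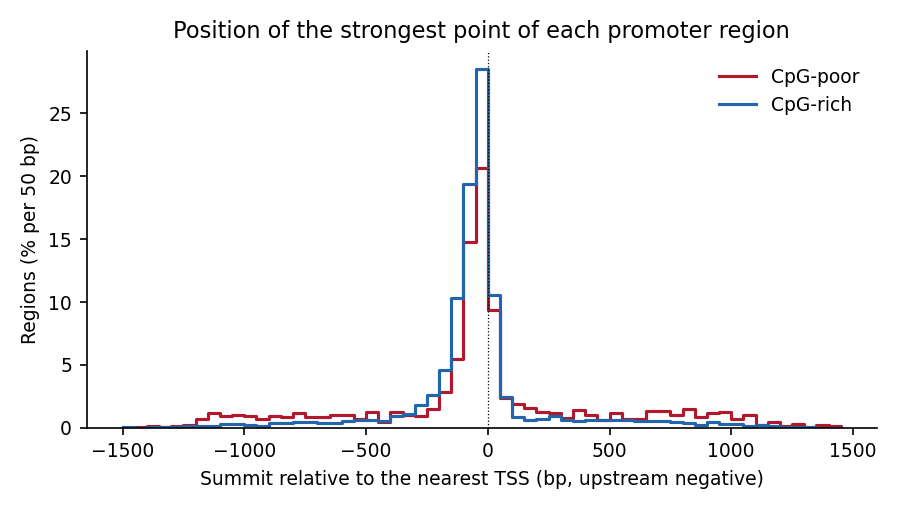
Position of the summit relative to the nearest TSS in bp (x axis, upstream negative) as percent of regions per 50 bp (y axis), for CpG-poor (red) and CpG-rich (blue) single-gene promoters. Both classes peak just upstream of the TSS, and the CpG-poor class has the lower peak and more regions away from it.

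The widest member was at Duxf3, a gene of a tandem repeat array of double homeobox genes, with 1906 bp, 7 summits, and 4.72-fold in replicate 1 and 5.01-fold in replicate 2. Trpv2, a cation channel of macrophages, had 1729 bp, and the tetraspanin gene Cd37 had 1681 bp with its summit at -6 bp from the TSS. Regions at Akap13 (1431 bp) and Angptl6 (1424 bp) followed. Their mean folds lay between 4.87 and 6.12, below those of the 20 strongest members.

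The ratio at the TSS does not describe every start of a gene. In 776 members the gene had only CpG-poor starts, in 386 it had another start with a ratio of 0.6 or more, and in 110 another start between these limits. Such another start lay within 1 kb of the region in 59 members. Median folds were 6.20, 5.69 and 5.40 in the 3 kinds, and the share with a summit within 200 bp of the CpG-poor TSS was 64.6%, 48.2% and 57.3%. Another open region lay within 10 kb of 860 members (67.6%), against 49.8% of CpG-rich promoters, 58.0% of regions far from genes and 56.1% of all regions.

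The lowest ratios among members were those of 4931408C20Rik, with 0 CpGs within 500 bp of its TSS, Nlrp1b with 0.019 and Trim30d with 0.0209. All were open in both replicates, with 5.71 and 5.43 at 4931408C20Rik, 9.21 and 11.6 at Nlrp1b, and 11.5 and 11.7 at Trim30d. Just inside the threshold were 4930550C14Rik, Zfp759 and Gne, with mean folds of 9.27, 7.92 and 8.28. Cxcl10, Nmur1 and Srrm3 were just outside it, with 5.82, 4.56 and 11.0. Members and regions next to the limit thus had values in the same range, and the limit is a point on a continuous scale. Around the summit itself, within 100 bp each side, members held a median of 4 CpGs, CpG-rich promoters 17 and all regions 5. Both promoter classes were set by the CpG ratio around the nearest TSS, so the contrast between them is tied to the rule. No CpG was held by 77 members (6.05%), close to the 5.70% of all regions and below the 8.52% of regions far from genes.

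The genes of the members were read through lists of immune, blood cell and tissue genes, counting in each list the genes with only CpG-poor starts. Over the lists of monocyte and innate immune genes together, 147 of 250 such genes (58.8%) had an open promoter in the set of both replicates, against 10.2% of all CpG-poor genes. In the replicates' own thresholded sets the numbers were 104 and 102, against 6.91% and 7.25% of all CpG-poor genes. In the lists of other blood cell types 15 of 132 (11.4%) were open, close to the share of all CpG-poor genes, and in lists of unrelated tissues 2 of 87 (2.30%). The 11.4% joins lists that differ, from 0% of platelet and mast cell genes to 23.1% of B cell and 23.5% of T cell genes. Some genes stand in more than 1 list, and the lists were chosen with results of these data known.

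**Figure D4:**
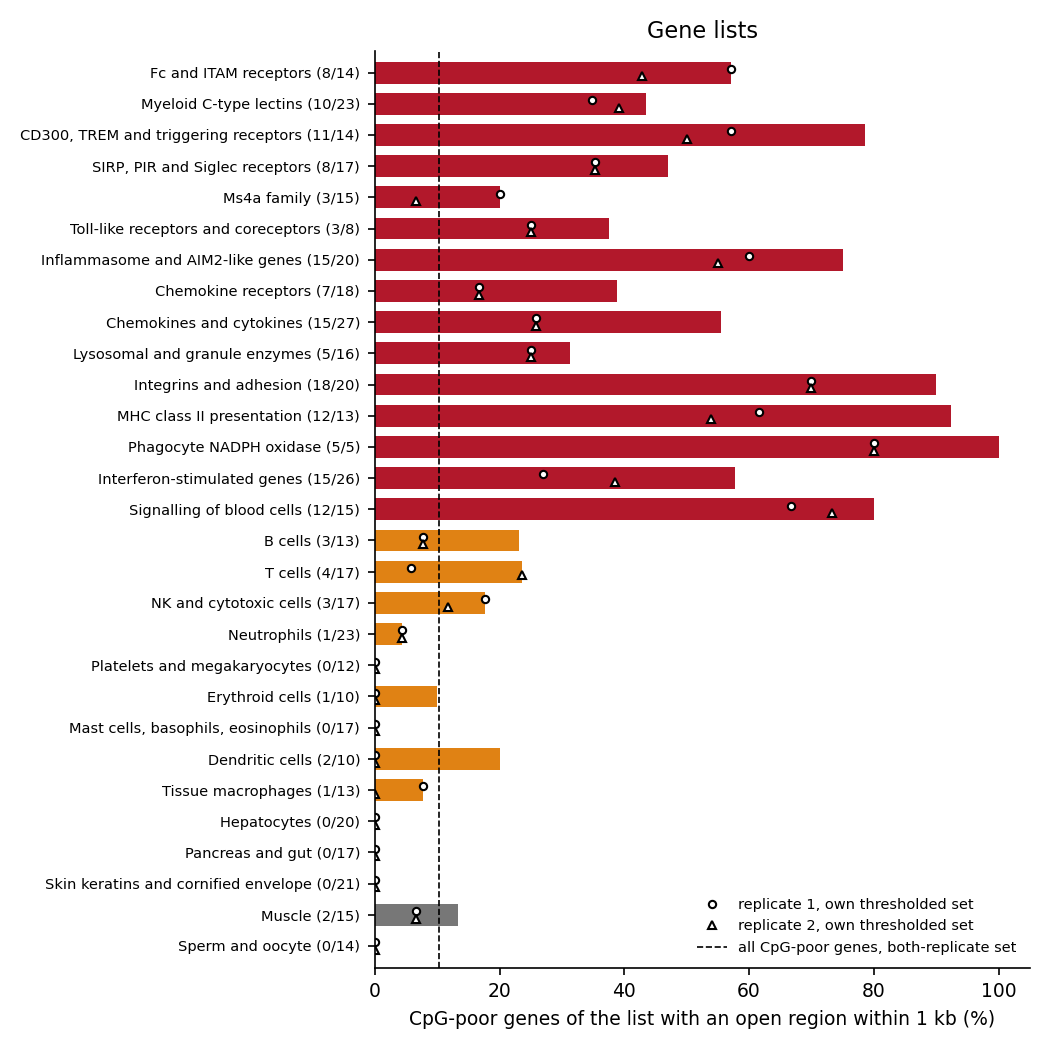
Percent of the CpG-poor genes of each list with an open region within 1 kb (x axis): bars give the set of both replicates, circles and triangles the own thresholded sets of replicates 1 and 2, the dashed line all CpG-poor genes, and brackets the numbers open and in all. Monocyte and innate lists are red, other blood cells orange and unrelated tissues grey. The red bars lie to the right of the dashed line, with the lowest at 3 of 15 genes for the Ms4a family. The orange bars of B cells, T cells, NK cells and dendritic cells also lie to the right of it.

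Receptors at the cell surface were open in part of each family. Of Fc receptors and their signalling chains 8 of 14 were open, led by Fcgrt, the receptor that recycles IgG, with 10.5 in replicate 1 and 10.3 in replicate 2. Fcer1g, the shared signalling chain of activating Fc receptors, had 7.91 and 7.16, and Fcgr2b, the inhibitory Fc receptor, 6.38 and 5.30. Fcamr and Fcer1a had no region. In the family of CD300 and TREM receptors, which has activating and inhibitory members, 11 of 14 were open. Besides Cd300lf these included Cd300lg, with 8.45 and 9.95 in a region whose summit lay at -1169 bp from the TSS, and Trem3 with 8.13 and 5.78. Cd300e had no region, and Cd300c had one only in the looser replicated set of the series, at 4.88-fold.

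C-type lectins, which bind sugars or other ligands on microbes and cells, were open at 10 of 23 CpG-poor genes. Clec2d had 10.4 in replicate 1 and 11.7 in replicate 2, and Clec4a3, an inhibitory lectin of myeloid cells, 7.88 and 8.98. Cd209a and Cd209b, of the DC-SIGN group, had no region. Of SIRP, PIR and Siglec receptors 8 of 17 were open, with 8.96 and 9.56 at Sirpb1b, 9.44 and 7.77 at Sirpb1c, and 7.86 and 6.62 at the inhibitory receptor Lilrb4a. Sirpb1b and Sirpb1c are close copies in the genome, so reads may have been split between them. Cd22 and Lilra6 had no region. The Ms4a family, tetraspan membrane proteins, had 3 of 15 open, with Ms4a6c at 7.05 and 6.12, Ms4a8a at 6.18 and 4.75, and Ms4a4a at 5.86 and 4.49. Ms4a6c alone was in both thresholded sets.

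Innate sensing genes included Toll-like receptors and inflammasome genes. Of CpG-poor Toll-like receptors and coreceptors 3 of 8 were open. The LPS receptor gene Tlr4 had 10.9 in replicate 1 and 10.5 in replicate 2, the DNA receptor gene Tlr9 had 6.07 and 4.57, and the LPS coreceptor gene Cd14 had 4.47 and 3.70 and was in neither thresholded set. Tlr1 and Cd180 had regions only in the looser set, at 5.38-fold and 3.04-fold. Of inflammasome and AIM2-like genes 15 of 20 were open, 11 of them in both thresholded sets. Besides Nlrp1a and Nlrp1b these included Naip6, of the sensors of bacterial flagellin and secretion systems, with 10.3 and 8.40. The AIM2-like gene Ifi203 had a region only in the looser set and Ifi205 had none. Whether the share of the inflammasome list differs from that of the Toll-like list was not tested.

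Genes of migration and secretion were open in part, and few of them in both replicates' thresholded sets. Of chemokine and related receptors 7 of 18 were open, 3 of them in both thresholded sets. Selplg, the selectin ligand PSGL-1, had 8.08 in replicate 1 and 5.98 in replicate 2, Ccr1 had 6.22 and 6.48, and Cx3cr1, the fractalkine receptor of patrolling monocytes, 5.47 and 5.35 with its summit at the TSS. The complement receptor genes C5ar1 and C3ar1 had no region in either set of both replicates. Ccr2, the receptor for exit of classical monocytes from bone marrow, also had none within 1 kb of its TSSs in these 2 sets or in the peaks of either replicate, and it is named after its values had been seen. Of chemokines and cytokines 15 of 27 were open, but each replicate's own thresholded set opened 7. Ccl2, the ligand of CCR2, had 7.03 and 8.43, the death ligand gene Tnfsf10 had 8.16 and 7.28, and Ccl3 had 6.80 and 7.02. Ccl12 and Ccl22 had no region.

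Adhesion, antigen presentation and oxidase genes were open at nearly all CpG-poor members of their lists in the set of both replicates, and at fewer in each replicate's own thresholded set, with 14 and 14 of 20, 8 and 7 of 13, and 4 and 4 of 5. Of integrins and adhesion molecules 18 of 20 were open. Ceacam1 had 8.68 in replicate 1 and 8.42 in replicate 2, the tetraspanin gene Cd53 had 7.32 and 7.43, and Itgal, the alpha chain of LFA-1, had 7.46 and 6.21. The platelet integrin gene Itga2b and the mucosal integrin gene Itgae had no region in this set. Of MHC class II presentation genes 12 of 13 were open, with 8.94 and 7.29 at the costimulatory gene Cd86, 8.15 and 7.03 at H2-DMb2, a chain of the peptide-loading factor, and 6.72 and 6.69 at Cd40. The exception was H2-Oa, which had a region of 2.75-fold in the looser set. All 5 CpG-poor genes of the phagocyte NADPH oxidase, which makes superoxide, were open. Its GTPase gene Rac2 had 6.71 and 7.75, and the cytosolic subunit gene Ncf4 had 5.26 and 6.03.

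Of lysosomal and granule enzymes 5 of 16 were open. Mmp8, a collagenase, had 8.68 in replicate 1 and 7.67 in replicate 2, the protease gene Ctse 8.02 and 5.91, and the lysozyme gene Lyz2 6.18 and 7.19. Chil3 and Ctsg had no region. Of interferon-stimulated genes 15 of 26 were open, among them Ifit3b with 7.39 and 7.22, and Ifit3 with 8.03 and 6.20. The member region of Gbp3, a guanylate-binding protein, had 6.93 and 7.78, but the gene has another start just above the CpG limit and is not counted among the 26. Gbp2 had a region in the looser set only and Gbp5 had none. Of signalling genes of blood cells 12 of 15 were open. These included Nckap1l, Wdfy4 with 9.83 and 9.36, and Ptpn6, the phosphatase SHP-1, with 8.64 and 7.10. Dok2 and the T cell kinase gene Lck had no region.

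In the lists of B cell, T cell, and NK and cytotoxic genes the open shares were 23.1%, 23.5% and 17.6%, against 10.2% of all CpG-poor genes. These lists are small, and some of their open members were strong. Of B cell genes 3 of 13 were open, and Bank1, a scaffold of B cell receptor signalling, had 12.0 in replicate 1 and 9.71 in replicate 2. Fcmr had 5.38 and 6.07 in a region with its summit at -1249 bp from the TSS, and Cd79b had a peak in replicate 2 only, at 3.54. Of T cell genes 4 of 17 were open, with 11.7 and 11.2 at Cd3d in a region whose summit lay 811 bp past the TSS, and 8.45 and 6.34 at Cd28. Cd3e, Cd3g and Cd4 had no region. Of NK and cytotoxic genes 3 of 17 were open, namely Cd244a with 7.16 and 7.09, Prf1, encoding perforin, with 6.18 and 5.62, and Gzmb, encoding granzyme B, with 5.62 and 5.68. The part of B, T or NK cells in the samples in these values was not tested.

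Of neutrophil genes only Mmp8, of dendritic cell genes only Clec9a (6.90 and 7.95, summit at -1369 bp from the TSS) and Ccr7 (4.10 and 3.997), of tissue macrophage genes only Adgre1 (5.36 and 4.99), and of erythroid genes only Klf1 (4.27 and 5.38, summit 1275 bp past the TSS) were open, among 23, 10, 13 and 10 CpG-poor genes. None of 12 platelet, 17 mast cell, basophil and eosinophil, 20 hepatocyte, 17 pancreas and gut, 21 keratinocyte and 14 germ cell genes was open. Of 15 muscle genes Tnni2 had 5.75 in replicate 1 and 4.86 in replicate 2, and Tnni3 had a peak in replicate 2 only, at 4.51. Cela1, a pancreatic elastase gene with another start that is not CpG-poor, had a member region 728 bp past its TSS, with 3.81 and 3.997.

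The counts depended on the peak set. In the own thresholded sets of replicates 1 and 2, CD300 and TREM receptors had 8 and 7 open genes in place of 11, chemokine receptors 3 and 3 in place of 7, and interferon-stimulated genes 7 and 10 in place of 15. The T cell list had 1 and 4 in place of 4, the B cell list 1 and 1 in place of 3, and the Ms4a family 3 and 1 in place of 3. The looser replicated set moved the counts unevenly. It opened 16.5% of all CpG-poor genes in place of 10.2%, 189 in place of 147 of the monocyte and innate genes, and 47 in place of 15 of the genes of other blood cells. B cell and NK cell lists rose from 3 to 9 genes each, neutrophils from 1 to 6 and platelets from 0 to 4, while unrelated tissues rose from 2 to 4. The counts of the Ms4a family (3 to 8), Toll-like receptors (3 to 6), C-type lectins (10 to 15), SIRP, PIR and Siglec receptors (8 to 12) and lysosomal enzymes (5 to 9) also depended on the set.

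Many members lay beside each other in gene clusters. The longest runs with gaps of at most 100 kb held 9 genes each. A run of zinc finger genes whose TSSs span chr13:67128228-67451624 (Zfp759, Rsl1, Zfp455, Zfp458, Zfp457, Zfp953, Zfp456, Zfp429 and Zfp874a) had a median fold of 9.69 in the set of both replicates, with 8 regions in both replicates' thresholded sets. The MHC class II run, with TSSs spanning chr17:34143307-34354822, from H2-DMb2 to Btnl2, had a median of 5.64 and 2 regions in both sets. The Trim5, Trim12, Trim30 and Trim34a genes on chromosome 7, restriction factors and relatives, made a run of 7 genes with a median of 11.2, in which all 7 were in both sets. The Trem run on chromosome 17 held 7 genes with a median of 6.19, and the Cd300 run on chromosome 11 held 6 with a median of 5.01 and a range from 3.98 to 13.8. These runs were chosen by their length.

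Among CpG-poor genes grouped by the start of their symbols, which was done after the strongest members had been seen, Zfp genes had 34 of 79 open (43.0%) and Trim genes 11 of 31 (35.5%), against 10.2% of all CpG-poor genes. The 47 member regions of Zfp genes had median folds of 7.13 in replicate 1 and 7.52 in replicate 2, and 29 were in both thresholded sets. The 13 regions of Trim genes had medians of 7.59 and 8.80, and all 13 were in both. Keratin-associated protein genes had 0 of 56 open, and cytochrome P450 genes 4 of 83. Zinc finger and Trim genes have near-identical copies, and the treatment of reads that map to several places is not given in the sources used here, so folds of single genes of these families are uncertain.

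Sequence strings of factors were counted on both strands within 100 bp each side of the summit, beside windows 500 bp away. GAGGAAGT, the PU.1 core, was in 159 of 1272 members (12.5%) and in 1.69% of the flanking windows. The share was 11.9% in regions far from genes and 2.76% in CpG-rich promoters, and among windows centred on TSSs it was 10.5% where a CpG-poor gene was open, 2.74% where it was not and 2.05% at all TSSs. Matches gathered within 50 bp of the summit, with 46.4 and 49.5 matches per 1000 members in the 50 bp before and after it, against 8.62 and 10.5 per 1000 CpG-rich promoters. The shorter ETS core GGAAGT, which is contained in GAGGAAGT, was in 41.4% of members and in 27.0% of CpG-rich promoters. Members with GAGGAAGT had a median fold of 5.85 and those without it 5.97, a small difference beside the quartiles of 4.74 and 7.45 over all members.

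**Figure D5:**
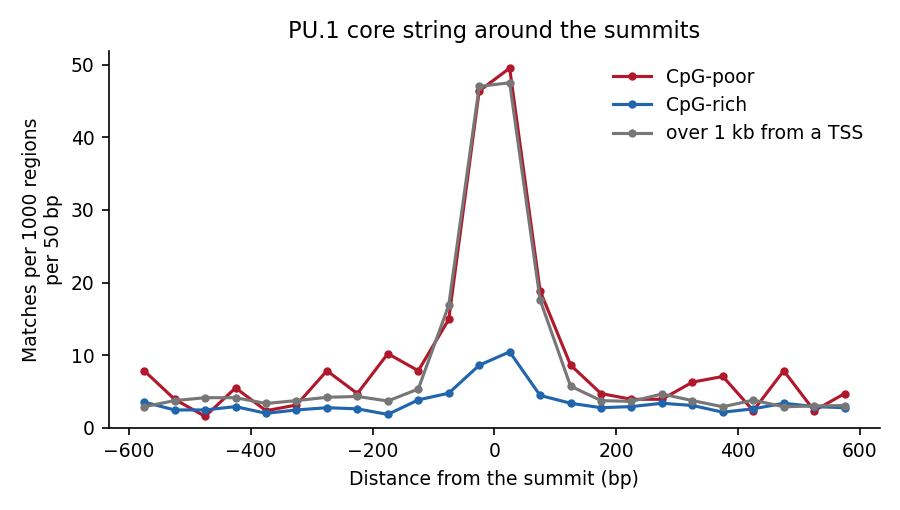
Matches to the PU.1 core string per 1000 regions in steps of 50 bp (y axis) by distance from the summit in bp (x axis), for CpG-poor promoters (red), CpG-rich promoters (blue) and regions over 1 kb from a TSS (grey). The red and grey lines both peak at the summit near 50 matches, and the blue line stays at or below 10.5.

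Other strings, of myeloid factors and of other factors, were also nearer in share to regions far from genes than to CpG-rich promoters. The RUNX string TGTGGT was in 23.3% of members, 24.6% of regions far from genes and 7.76% of CpG-rich promoters, with 15.1% in the flanks of members. The C/EBP string TTGCNNAA was in 12.1%, 13.5% and 5.33%, with 7.15% in the flanks, and the AP-1 string TGANTCA in 8.73%, 11.3% and 2.79%, with 5.78% in the flanks. The shares at all TSSs were 10.1%, 5.51% and 3.97%. In windows centred on the TSSs of CpG-poor genes, TGTGGT was in 19.9% where the gene was open and 15.6% where it was not, TTGCNNAA in 7.33% and 8.35%, and TGANTCA in 6.45% and 6.83%. The IRF repeat GAAANNGAA was in 8.25% of members, against 5.94% in their flanks. The pattern was not particular to myeloid factors. The GATA string AGATAA was in 4.80% of members, 6.38% of regions far from genes and 2.28% of CpG-rich promoters, with 9.83% in the flanks of members. The E-box CAGCTG was in 17.5%, 14.6% and 9.40%, with 10.8% in the flanks. The GC box GGGCGG, bound by SP and KLF factors, was in 18.6% of members, 63.0% of CpG-rich promoters and 37.8% of all TSS windows. This string holds a CpG, so its share is tied to the ratio by which members were chosen. A match is a description of letters and not a measured binding site.

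CCAAT, the NF-Y box, was in 25.1% of members and 22.3% of their flanks, and in 35.4% of CpG-rich promoters. The longer string CCAATCAG, which contains it and was chosen after the strongest members had been seen, was in 47 members (3.69%), 0.786% of flanks, 6.02% of CpG-rich promoters and 2.65% of all TSS windows. Since the string was chosen from the strongest members, no comparison of folds with and without it is given. Of the 20 strongest members, Golph3l, 2010315B03Rik, Zfp950, Zfp932, Fggy, 5430403G16Rik, Zfp958 and B230307C23Rik held it. The string was taken from the strongest members, so how many of these 20 held it is no result. In the 120 bases upstream of the TSS, CCAATCAG was in 5.07% of members with a summit within 200 bp and in 2.66% of all TSSs, and the PU.1 core was in 8.40% and 1.36%. Of 34 such Zfp members, 7 held CCAATCAG and 0 held the PU.1 core. Around the summits of all 47 Zfp member regions, 8 held CCAATCAG and 3 held the PU.1 core (6.38%, against 1.06% in their flanks). Zfp genes were among the strongest members, so the counts of CCAATCAG in them are not independent of its choice.

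TATA boxes were about as frequent at open CpG-poor starts as at all starts. TATAAA, read on the strand of the gene within 40 to 20 bp upstream of the TSS, was in 9 of the 750 members with a summit within 200 bp (1.20%), in 2.70% of CpG-poor TSSs that were not open, in 0.541% of open CpG-rich TSSs and in 1.44% of all TSSs. The 9 genes, named because they are so few, were Rgs1, Tph2, Ifi47, Clec4e, Ifitm6, S100a4, Neurl3, Tnf and Ccl4. Rgs1, a regulator of chemokine receptor signalling, had 9.94 in replicate 1 and 8.34 in replicate 2, and the cytokine gene Tnf had 4.98 and 4.26. Mean folds of the 9 ranged from 4.54 at Ccl4 to 9.14 at Rgs1, around the median of all members.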

How the data were processed

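Peak lists in narrowPeak layout on mm10 were used as deposited. The authors gave each peak a fold enrichment over background, a −log10 p and a score, and filtered the conservative lists by IDR, per the read-me text deposited with them and the narrowPeak layout it names. The aligner is not given in the sources used here, nor is the peak caller. Folds were not rescaled between replicates. From these lists, overlapping peaks were merged, and TSSs of protein-coding transcripts were taken from GENCODE M21 on GRCm38. The CpG ratio was counted in 500 bp each side of the TSS nearest to the summit. A replicate's value is the highest fold among its own peaks, called on pseudoreplicates, that overlap the region by at least 1 bp. A CpG-poor gene has a ratio under 0.4 at every protein-coding TSS, and it is open where a region lies within 1 kb of any of them. Classes were compared within each replicate, with an exact sign-flip test over the 2 replicates. Named genes are the 20 members with the highest mean fold among those in both replicates' thresholded sets, the 5 with the largest replicate difference, the 5 widest, the 3 with the lowest ratio, the 3 on each side of the threshold, and in each list up to 3 open members and 2 genes without a region, of which some are not reported here. Members, lists and strings were chosen with earlier results of these data known. Scripts were tested on simulated regions, in Python 3.11.15 with numpy 2.4.6, pandas 2.3.3, scipy 1.17.1, pysam 0.24.0 and matplotlib 3.10.9.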

Additional observations from a re-analysis of the deposited data

How the results depend on the processing

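The difference in median fold between CpG-poor and CpG-rich promoters stayed between -1.95 and -1.78 under every alternative setting. Those of the peaks were the optimal and the looser replicated peak sets and a score of 830 or more. Those of the CpG ratio were limits of 0.35 and 0.45 and a window of 250 bp. The others were a distance of 500 bp, the region's midpoint in place of the summit, and basic transcripts only. The values of each replicate alone, -1.74 and -1.96, are those of the main result, on regions of the set of both replicates. The difference was not recomputed on regions from the thresholded set of 1 replicate. The number of members was 2326 in the replicated set and 777 to 788 in the thresholded set of 1 replicate, where replicate 2 or replicate 1 was left out. Their median fold was 4.44 in the replicated set, 6.53 at a score of 830 or more, 6.18 within 500 bp and 6.34 to 6.60 without a replicate. The share in both replicates' thresholded sets was 26.5% in the replicated set, 64.8% at a score of 830 or more and 52% within 500 bp. These settings change which peaks enter, by construction. Basic transcripts left 1057 members, of which 1039 were among the 1272. No paired analysis was possible because there is a single group of samples, so replicate numbers pair no groups, and classes of regions were compared within each replicate instead. The files hold no read counts, so the depth behind a weak or missing peak is unknown, and a promoter without a region was not detectable as open rather than shown to be closed.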

Other observations

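Some members belong to gene families known from tissues other than blood. They were chosen by their symbols after values had been seen, and the cytochrome P450, olfactory and vomeronasal genes are among those counted by symbol above. Cyp2ab1, a cytochrome P450 gene, had 3 member regions, the strongest with 8.37 in replicate 1 and 9.46 in replicate 2. Cyp4f13, of a family that oxidises fatty acids and eicosanoids, had 11.0 and 9.47, and Cyp4f16 and Cyp4f18 were also open. The region of Gh, the growth hormone gene, had its summit at -976 bp from the TSS, with 6.02 and 6.78. The olfactory receptor genes Olfr372 and Olfr373 had 7.48 and 5.28, and 7.11 and 5.01, both higher in replicate 1 and in the thresholded set of that replicate only. The vomeronasal receptor gene Vmn2r4 had 5.85 and 6.87 with its summit 917 bp past the TSS. The keratin gene Krt80 had 3.13 and 2.73 with its summit at -1 bp, and Krt7 had a peak in replicate 2 only. A region within 1 kb of a start is not evidence that the start is used.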
